A study of Mus musculus with 31 samples.

Results

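Brain and spleen of the same 4 mice heterozygous for a Dll1 mutation were compared on cDNA microarrays that carry both dyes. Of the 31 arrays of the series 16 were used, 8 of brain and 8 of spleen, chosen by the organ that the sample labels give. Each array held RNA of 1 heterozygous mouse beside wild-type RNA pooled from the same organ. The RNA of each mouse and organ went onto 2 arrays, once in Cy5 and once in Cy3. The heterozygous mice were males of 17 weeks, and the pooled wild-type animals were 18 weeks old. The brain pool and the spleen pool were made from the same wild-type animals, whose number the labels give in 2 ways. The labels name no allele. The published study of this line used Dll1tm1Gos/+ mice, in which a lacZ reporter disrupts the coding sequence of Dll1, on the C3HeB/FeJ background, and it differs from the labels in the age and number of mice, the amount of RNA and the record of the arrays, so the samples may not be the same ones. A value is a log2 ratio of the heterozygous mouse over the pool of its organ. The difference is the mean ratio in brain less the mean ratio in spleen, and the shared shift is the average of both means.

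Dll1 encodes a membrane ligand of the Notch receptors. On contact with a neighbouring cell it triggers cleavage of the receptor, whose intracellular part joins the DNA-binding protein Rbpj and turns on target genes such as those of the Hes and Hey families. In the spleen, Dll1 acting on Notch2 is needed for marginal zone B cells, and in the developing brain the pathway holds neural progenitors back from differentiation. The comparison asks which transcripts differed from wild type in brain but not alike in spleen, and which were shifted alike in both organs.

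The arrays of spleen mouse 1 stood apart before any comparison was made. Its Cy5 array (mutant RNA in Cy5) lacked 39.0% of values and its Cy3 array 26.2%, with standard deviations of 1.905 and 1.392 and a median of 0.708 on the Cy5 array. The Cy5 array of brain mouse 4 lacked 22.3%, with a standard deviation of 1.418 and a median of 0.214. On the other 13 arrays 1.2 to 6.7% of values were missing, the standard deviations were 0.655 to 1.084 and the medians -0.003 to 0.104. The dye-swapped arrays of a mouse barely correlated over the rows, from -0.105 to 0.061 in brain and from -0.080 to 0.031 in spleen. Mutant over pool is therefore only the likely direction, taken because channel 1 is the mutant RNA in the labels of every array and the published ratios are mutant against wild type. Pool over mutant would turn every sign below, and a reading as Cy5 over Cy3 would turn 55 of the 70 single values given here. Gene names are inferred from a fixed displacement between the rows of the table and the probe list. Spot intensities were not used here, so how far a spot lay above background is not known, and ratios to a pool of the same organ cannot check the identity of the tissue.

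The targeted gene itself has 2 rows, which gave different values. The Dll1 row with the firmer name was at 0.13, 0.54, 0.29 and -0.37 in brain of mice 1 to 4, and at 0.64, 0.34, 1.60 and 0.06 in spleen. The organs overlapped, with a difference of -0.51 (SE 0.39) that became -0.20 without spleen mouse 3. The other Dll1 row is near the end of the table, where the naming is less sure, and was at -0.12, -0.52, -0.25 and -0.54 in brain and 0.21, -1.65, -0.30 and -0.54 in spleen. Its difference was 0.21 (SE 0.40), which became -0.15 without spleen mouse 2 and was 1.21 in the Cy5 arrays and -0.78 in the Cy3 arrays. Its shared shift was -0.46 (SE 0.20), or -0.28 without spleen mouse 2. The shared shift of the former row was 0.40 (SE 0.20), or 0.25 without spleen mouse 3. Whether either spot covers the part of Dll1 that the mutation disrupts is not known, so neither row checks the labels.

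Over the whole array no row passed the test of the difference between organs. Of 20646 rows measured in 3 or 4 mice of each organ, 0 (0%) had an adjusted p under 0.05 by limma with Benjamini-Hochberg adjustment, and the smallest adjusted p was 0.836. At an unadjusted p under 0.05 the count was 1033 rows, of which 525 (2.54%) lay higher in brain and 508 (2.46%) lower. Among 17998 rows with a value in every mouse, all 4 brain values lay above all 4 spleen values in 434 (2.41%) and below them in 437 (2.43%). In 79 rows (0.439%) every brain value was above 0 and every spleen value below 0, and in 132 rows (0.733%) it was the other way. These shares are the background against which the genes below are read. All differences named below therefore miss the adjusted threshold, and they are described as values.

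Genes of immune cells were prominent among the rows with the smallest p for a higher ratio in brain. Lyz2, the lysozyme of macrophages and neutrophils, was at 0.99, 1.36, 0.48 and 1.37 in brain of mice 1 to 4 and at -1.15, -1.26, -0.76 and -0.95 in spleen. Cd74, the invariant chain that guides MHC class II molecules, was at 1.57, 1.52, 3.25 and 1.37 in brain and at -0.79, -0.42, -0.49 and -1.93 in spleen. Pou2af1, a transcriptional coactivator of B cells, was at 0.90, 0.18, 0.86 and 1.15 in brain and at -0.77, -0.73, -0.94 and -0.78 in spleen. In these 3 rows every brain value was above the wild-type pool and every spleen value below it. For Lyz2 the brain mean was 2.06 in the Cy5 arrays and 0.04 in the Cy3 arrays, so its height in brain rested on 1 dye, while Cd74 was at 1.26 and 2.27 and Pou2af1 at 0.92 and 0.63. The differences were 2.07 for Lyz2 (SE 0.31), 2.83 for Cd74 (SE 0.51) and 1.58 for Pou2af1 (SE 0.30), each with an adjusted p of 0.836 by limma. In bulk tissue, fewer cells of a type and less RNA per cell cannot be told apart.

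The other rows at this end held further genes of blood cells. Rac2, a small GTPase of haematopoietic cells, was at 0.62, 0.76, 1.54 and 0.73 in brain and at -0.48, -0.55, -0.42 and -1.04 in spleen. Plac8, which lymphoid and myeloid cells express, was at 0.84, 0.66, 0.66 and -0.40 in brain and at -1.25, -1.24, -1.44 and -0.93 in spleen. Nrros, which presents latent TGF-beta on myeloid cells and microglia, was at 2.47, 0.96, 0.87 and 1.86 in brain and at -0.23, -0.16, -0.16 and -0.40 in spleen. The organs did not overlap in any of these rows, which the choice by small p favours, although Plac8 was below 0 in brain mouse 4. By dye, Plac8 in brain was at 1.60 in the Cy5 arrays and -0.22 in the Cy3 arrays, Nrros at 0.38 and 2.21 and Rac2 at 0.85 and 0.98. The differences were 1.54 for Rac2 (SE 0.32), 1.65 for Plac8 (SE 0.34) and 1.78 for Nrros (SE 0.39).

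**Figure D1:**
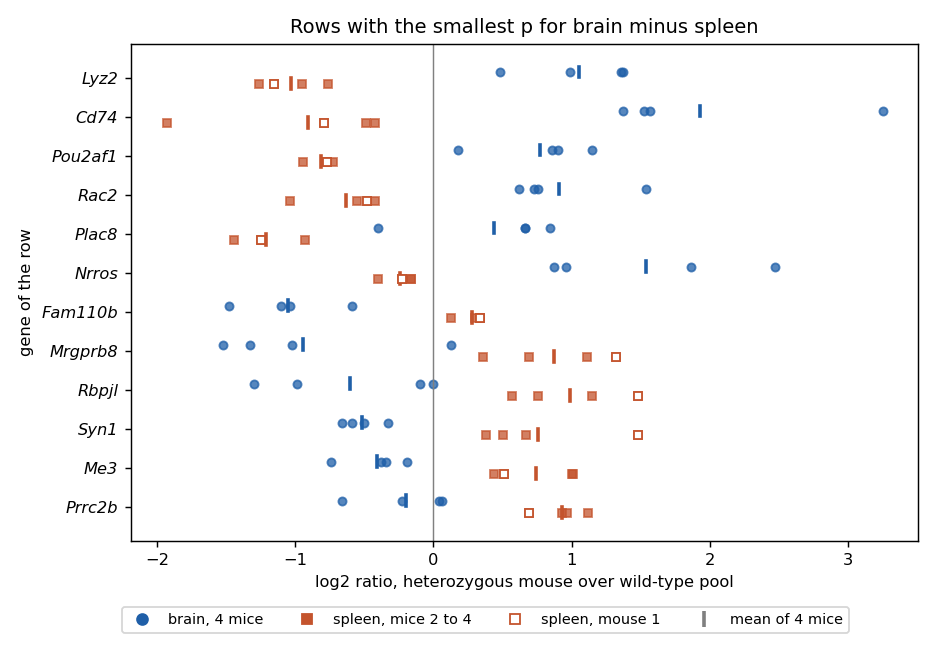
Log2 ratios of heterozygous mouse over wild-type pool (x axis) in the 6 named rows with the smallest p for a higher ratio in brain, from Lyz2 to Nrros, and the 6 for a lower one, from Fam110b to Prrc2b. Circles are the 4 brain values, squares the 4 spleen values with mouse 1 open, and bars the means. In none of the 12 rows do the organs overlap, which the choice by small p favours. The organs are separate in 4.84% of all rows with a value in every mouse. The means of Lyz2 are 1.05 in brain and -1.03 in spleen.

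Other rows of the same genes, and other genes of the same roles, also had differences above 0. A second row of Lyz2 was at -0.11, 0.17, 0.30 and -0.44 in brain and between -1.28 and -1.24 in all 4 spleens, a difference of 1.24 (SE 0.28) with brain near the pool. The Lyz2 spots may also catch the near-identical Lyz1. A second row of Cd74 had a difference of 2.05 (SE 0.63), with brain at 0.96, 3.31, 0.95 and 0.16 and spleen at -0.08, -0.54, -0.95 and -1.26. Another row of Cd74 had a difference of 1.38 (SE 0.34), with brain at -0.30, 0.22, 0.91 and 0.86 and spleen at -1.09, -0.69, -0.95 and -1.10. All 3 Cd74 rows were thus below the pool in every spleen. Ms4a1, the gene of the B cell surface protein CD20, was at 0.91, -1.10, 0.79 and 0.67 in brain and at -1.08, -1.82, -1.26 and -1.21 in spleen, a difference of 1.66 (SE 0.47). The MHC class II chain H2-Eb1 was at -0.16, -0.04, 1.57 and 0.66 in brain and at -0.66, -1.18, -0.55 and -1.12 in spleen, a difference of 1.38 (SE 0.42). Ms4a1, H2-Eb1 and the second rows of Lyz2 and Cd74 were chosen for the largest differences of their lists. The size of their differences was thus set in part by that choice.

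The promoters of 3 of these genes are shown because genes of macrophages and B cells are known targets of the Ets factor PU.1, whose core motif GAGGAA was searched on both strands. They hold the 150 bases before the RefSeq start on GRCm38.p6, 5′ to 3′ on the strand of the gene, with matches in capitals. Lyz2 lies at chr10:117282273-117282422 on the minus strand, Plac8 at chr5:100572206-100572355 on the minus strand and Pou2af1 at chr9:51213540-51213689 on the plus strand.
Lyz2: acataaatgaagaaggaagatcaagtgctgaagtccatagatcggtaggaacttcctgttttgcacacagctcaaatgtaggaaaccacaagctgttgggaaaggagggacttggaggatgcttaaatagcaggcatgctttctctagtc
Plac8: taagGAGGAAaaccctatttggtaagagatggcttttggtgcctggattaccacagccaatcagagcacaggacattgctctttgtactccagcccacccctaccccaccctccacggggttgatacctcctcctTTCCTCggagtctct
Pou2af1: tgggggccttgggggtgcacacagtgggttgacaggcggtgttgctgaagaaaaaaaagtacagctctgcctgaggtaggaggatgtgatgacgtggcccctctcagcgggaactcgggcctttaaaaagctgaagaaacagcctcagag
Plac8 holds 2 matches, and the other 2 windows hold none. Over all 32851 RefSeq promoters the motif was found in 14.5% of such windows, in 7 of 13 promoters of the macrophage and red pulp list (53.8%) and in 2 of 6 of the B cell list. A match is a description of the letters and shows no binding.

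The B cell list was higher than the pool in brain and lower in spleen in every mouse. Its median over 13 rows of 9 genes was 0.33, 0.70, 0.28 and 0.74 in brain of mice 1 to 4 and -0.77, -0.63, -0.63 and -0.78 in spleen, and the median difference was 0.92 beside -0.06 for all rows tested. Of the 13 rows 10 had a difference above 0, 8 of them with an unadjusted p under 0.05 against 2.54% of all rows, and 4 had organs that did not overlap against 2.41%. Cd74, which counts in the B cell and the MHC class II lists, Ms4a1 and Pou2af1 hold part of these rows, and were chosen above for their differences. Without spleen mouse 1 the median difference of the B cell list was 1.17. It was 0.67 in the arrays with the mutant RNA in Cy5 and 1.57 in those with it in Cy3. In brain the B cell median was 0.05 in the Cy5 arrays, beside 0.09 for all rows, and 0.34 in the Cy3 arrays. In spleen the B cell median was -0.40 and -0.82. Whether these spots rose above background in brain is not known.

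Macrophage and antigen presentation lists lay on the same side. The macrophage and red pulp list had a median of 0.20 in brain and -0.36 in spleen over 20 rows, a median difference of 0.41, with 15 rows above 0 and 6 at an unadjusted p under 0.05. Its median difference was 0.38 in the Cy5 arrays and 0.64 in the Cy3 arrays, and 0.66 without spleen mouse 1. In brain its median was 0.35 in the Cy5 arrays and -0.17 in the Cy3 arrays, and in spleen -0.12 and -0.68. Lyz2 and Plac8, chosen above for their differences, hold part of these rows. The MHC class II list had a median difference of 0.85 over 9 rows, 7 of them above 0 and 4 at an unadjusted p under 0.05, and 0.93 without spleen mouse 1. Its median difference was 0.23 in the Cy5 arrays and 1.34 in the Cy3 arrays. The MHC class I list had a median difference of 0.66 over 10 rows, but its brain medians ran from -0.44 in mouse 2 to 0.66 in mouse 4, and 1 row reached an unadjusted p under 0.05. The T cell list, by contrast, had a median difference of -0.10 over 23 rows with 1 row at that threshold in each direction. Over all rows 2.54% were at that threshold above 0 and 2.46% below 0. Of all 20646 rows, 9439 had a difference above 0.

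Digestive enzymes of the exocrine pancreas, an organ that lies against the spleen, also had a list median below 0 in spleen and above 0 in brain. Cela2a, an elastase, was at 1.04, 0.91, 1.58 and 1.49 in brain and at 0.54, -1.50, -0.59 and -1.41 in spleen, a difference of 1.99 (SE 0.47). Cpa1, a carboxypeptidase, was at 0.27, 0.95, 0.63 and 0.29 in brain and at -0.46, -0.76, -0.89 and -0.93 in spleen, a difference of 1.30 (SE 0.29). Rnase1, the pancreatic ribonuclease, was at 3.14, -0.79, 1.72 and -0.32 in brain and at -1.32, -1.54, -0.50 and -2.27 in spleen, a difference of 2.34 (SE 0.82). Neither Cela2a nor Cpa1 overlapped between organs, while Rnase1 did. These rows were chosen for the largest differences of their list. Of the same list, Zg16 had a mean of 0.45 in spleen and Clps a mean of -0.20 in brain. Of the 11 rows of the exocrine pancreas list 10 had a difference above 0. Of these, 5 had an unadjusted p under 0.05, against 2.54% of all rows, and the median difference was 0.90. The median difference of this list was 1.16 without spleen mouse 1, 0.30 in the Cy5 arrays and 1.33 in the Cy3 arrays. In brain the list median was 0 in the Cy5 arrays and 0.79 in the Cy3 arrays, so its height there rested on 1 dye. In spleen the list median was -0.35 and -0.53, and spleen mouse 1 was at 0.07. The part of pancreatic RNA in the spleen values was not tested, and whether the brain spots rose above background is not known.

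Neuronal genes held the opposite pattern, lower than the pool in brain and higher in spleen. Syn1, which encodes the synaptic vesicle protein synapsin, was at -0.66, -0.59, -0.33 and -0.50 in brain and at 1.48, 0.50, 0.38 and 0.67 in spleen, a difference of -1.28 (SE 0.32). Camk2b, a subunit of a calcium-dependent kinase of synapses, was at -0.50, -0.80, -0.09 and -0.39 in brain and at 1.69, 0.56, 2.54 and 0.37 in spleen, a difference of -1.73 (SE 0.48). Camk2a, the partner subunit of that kinase, was at -0.72, -0.29, -0.09 and -0.50 in brain and at 0.81, 2.22, 0.39 and 1.21 in spleen, a difference of -1.56 (SE 0.41). In all 3 rows every brain value was below 0 and every spleen value above it. By dye, Syn1 in brain was at 0.07 in the Cy5 arrays and -1.11 in the Cy3 arrays, and Camk2b at -0.03 and -0.86. The low level of these genes in brain thus rested on 1 dye. Camk2a was at -0.29 and -0.51 in brain. In spleen Syn1 was at 1.24 and 0.27, Camk2b at 1.07 and 1.5 and Camk2a at 2.03 and 0.29. A second row of Camk2a had a difference of -0.43 (SE 0.28) and was below 0 in 3 of 4 spleens. Vsnl1, a neuronal calcium sensor, had a difference of -1.69 (SE 0.65), or -0.97 without spleen mouse 1, whose value of 3.23 was far above the other spleens at 0.86, 0.23 and -0.12. A second row of Vsnl1 had a difference of -0.76. Camk2b, Camk2a and the first Vsnl1 row were chosen for the largest differences of the neuron list, and Syn1 for its small p.

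The medians of the neuron list did not overlap between the organs. The list had 34 rows of 25 genes, with medians of -0.29, -0.35, -0.30 and -0.38 in brain and 0.85, 0.34, 0.10 and 0.10 in spleen. Its median difference was -0.66, with 27 of 34 rows not above 0, 9 at an unadjusted p under 0.05 below 0 against 2.46% of all rows and 0 above 0. All 4 brain values lay below all 4 spleen values in 9 rows of the neuron list against 2.43% of all rows, and in 6 rows every sign was opposite, against 0.733%. Without spleen mouse 1 the median difference was -0.44, and it was -0.32 in the Cy5 arrays and -1.08 in the Cy3 arrays. In brain the neuron median was -0.75 in the Cy3 arrays and 0.08 in the Cy5 arrays. The spleen holds few nerve fibres, and whether these spleen spots rose above background is not known.

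Other brain cell lists moved less between the organs. The astrocyte list had medians of -0.40 in brain and -0.08 in spleen, a median difference of -0.29 over 24 rows with 1 row at an unadjusted p under 0.05 in each direction. The oligodendrocyte and myelin list had medians of -0.26 and 0.08 and a median difference of -0.25 over 19 rows, 2 of them past that threshold below 0. The microglia list had a median difference of 0.04 over 6 rows with 0 past it. Lists of endothelium and choroid plexus, immediate early genes and cell cycle genes had median differences of -0.22, -0.12 and 0.13. The neutrophil and granulocyte list had a median difference of 0.15, with 2 of 19 rows past the threshold above 0. Over all rows 2.54% were past it above 0 and 2.46% below 0. Rows of the microglia list varied in brain, with means of 0.85 for Trem2, 0.79 for Aif1, -0.31 for C1qb and -0.54 for C1qc. Trem2 and Aif1 were above the pool in every brain. Which cells held the higher Lyz2 and Nrros values in brain was not tested.

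Several rows with a lower ratio in brain were not neuronal. Fam110b, a centrosome-associated protein, was at -0.59, -1.04, -1.48 and -1.10 in brain and at 0.34, 0.13, 0.34 and 0.30 in spleen, a difference of -1.33 (SE 0.29), but a second row of it had a difference of 0.38. The close spleen values of Fam110b averaged 1.05 in the Cy5 arrays and -0.5 in the Cy3 arrays, while brain was at -0.82 and -1.29. Mrgprb8, a Mas-related G protein-coupled receptor, was at -1.33, -1.52, 0.13 and -1.02 in brain and at 1.32, 1.11, 0.36 and 0.69 in spleen, a difference of -1.81 (SE 0.42). Rbpjl, the pancreatic relative of the Notch factor Rbpj, was at -0.99, 0, -0.10 and -1.30 in brain and at 1.48, 0.57, 1.15 and 0.76 in spleen, a difference of -1.59 (SE 0.39). Brain and spleen were separate in these rows, which the choice by small p favours, while brain mouse 3 was above 0 for Mrgprb8. Me3, a mitochondrial malic enzyme, had a difference of -1.15 (SE 0.29), from -0.74, -0.34, -0.38 and -0.19 in brain and 0.51, 1.00, 0.44 and 1.01 in spleen. Prrc2b had a difference of -1.12 (SE 0.29), from 0.06, 0.04, -0.23 and -0.66 in brain and 0.69, 1.12, 0.97 and 0.93 in spleen. The Prrc2b difference was -0.21 in the Cy5 arrays and -2.04 in the Cy3 arrays. Rbpjl went the other way from the exocrine pancreas list, which does not include it and had a median difference of 0.9.

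Among rows of opposite sign in every mouse, those with the largest lower ratio in brain, and Mark2 with a higher one, rested in part on single samples. Tuft1, which encodes tuftelin of tooth enamel, was at -0.81, -0.37, -0.94 and -0.20 in brain and at 3.98, 0.66, 0.98 and 0.89 in spleen. Nptxr, a neuronal pentraxin receptor, was at -0.01, -0.40, -0.52 and -0.71 in brain and at 5.06, 0.21, 0.83 and 0.66 in spleen. The RIKEN cDNA gene 1110051M20Rik was at 5.02 and Diras1, a Ras-like GTPase of brain, at 4.02 in spleen mouse 1, with the other spleens at 0.18 to 0.80 and 0.79 to 0.81. Spleen mouse 1 was the far value in each of these rows, although the signs were opposite in every mouse. Their differences of -2.21, -2.10, -2.03 and -1.84 became -1.42, -0.98, -0.90 and -1.04 without it. The 5 other rows of Nptxr had differences from -1.45 to 0.10. In the other direction Mark2, a kinase that acts on microtubule-associated proteins, had a difference of 1.84 (SE 0.63) with brain at 1.07, 0.04, 0.66 and 3.34 and spleen at -0.78, -0.83, -0.26 and -0.37. Without brain mouse 4 this difference was 1.15, and the other rows of Mark2 had differences of -0.35 and 0.27.

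A shift shared by both organs gave smaller p than the difference, yet no row passed the adjusted threshold. Of the 20646 rows 0 (0%) had an adjusted p under 0.05 by limma for the shared shift, with a smallest value of 0.164, and 0 passed for brain alone (smallest 0.444) or spleen alone (smallest 0.312). The unadjusted p was under 0.05 in 3397 rows for the shared shift, 2136 (10.3%) above 0 and 1261 (6.11%) below 0, and 2148 and 2306 for brain and spleen alone. The share above 0 was 62.9%, and with each array centred on its median it was 42.9%. The median shared shift of all rows was 0.11, and the median ratio of spleen mouse 1 over all rows was 0.37. Without spleen mouse 1 the share above 0 was 55.9%. In every mouse of both organs 687 rows (3.82%) were below 0 and 446 (2.48%) above 0. When single arrays were fitted with a term for the dye, limma called 266 rows for the shared shift, 67 above and 199 below 0, with 0 for the difference. In that fit the dye-swapped arrays of a mouse and organ were separate values joined by a random block, at an estimated correlation of 0.011, so each mouse counted nearly as 2 replicates. With 1 averaged value per mouse and organ, and the spread of these 2 organs, no row passed. With the same values and the spread of all 4 organs 901 rows passed, 477 above and 424 below 0. The brain and spleen pools came from the same wild-type animals, so a property of those animals would enter both organs.

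Genes of the cytosolic ribosome were lower than the pool in both organs, and further below it in spleen. The median over 91 rows of 60 genes was -0.26, -0.43, -0.32 and -0.31 in brain of mice 1 to 4 and -0.67, -0.61, -0.50 and -0.83 in spleen, so that all 4 spleens were below all 4 brains. The lower level in brain was seen with 1 dye only, with a median of 0.15 in the Cy5 arrays and -0.79 in the Cy3 arrays, while spleen was at -0.21 and -1.04. The median shared shift was -0.51, beside 0.11 for all rows, and was -0.08 in the Cy5 arrays and -0.91 in the Cy3 arrays. Of the 91 rows 82 had a shared shift below 0 and 72 of them an unadjusted p under 0.05, against 6.11% of all rows, while 2 rows reached it above 0. In 48 rows every one of the 8 values was below 0, against 3.82%. The median difference of the cytosolic ribosome was 0.32. In 13 rows the brain values all lay above the spleen values, against 2.41% of the rows with a value in every mouse. The dye-term fit, with arrays as the values, called 31 of the 91 rows below 0 at an adjusted p under 0.05, against 0.964% of all rows.

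Single ribosomal rows showed the same order. Rpl12, a protein of the large subunit, was at -0.20, -0.47, -0.51 and -0.42 in brain and at -1.37, -1.13, -0.88 and -1.39 in spleen, a shared shift of -0.80 (SE 0.13). Rplp0, the stalk protein of the large subunit, was at -0.35, -0.69, -0.66 and -0.55 in brain and at -1.60, -0.86, -0.72 and -1.57 in spleen, a shared shift of -0.87 (SE 0.16). Rpl28 was at -0.32, -0.60, -0.63 and -0.50 in brain and at -1.08, -0.86, -0.72 and -1.35 in spleen, a shared shift of -0.76 (SE 0.14). No brain value overlapped a spleen value in these 3 rows, and all 8 values were below 0. With the mouse as the unit the adjusted p by limma was 0.164 for each, or 0.288 with the mouse as a block. With the spread of all 4 organs the adjusted p by limma was 0.0153 for Rpl12, 0.0146 for Rplp0 and 0.0153 for Rpl28. In the dye-term fit, which counts both arrays of a mouse, it was 0.0395 for Rpl12, 0.0172 for Rplp0 and 0.0295 for Rpl28. Eef2, the factor that moves the ribosome along the mRNA, was at -0.26, -0.71, -1.07 and -0.91 in brain and at -1.53, -0.71, -0.96 and -1.27 in spleen, a shared shift of -0.93 (SE 0.16). Its other rows had shared shifts of -0.75, -0.56 and -0.51.

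Not every ribosomal row was low. Rpl30 was at 0.77, 0.68, 1.16 and 0.11 in brain and at 1.56, 0.95, 0.63 and 0.78 in spleen, a shared shift of 0.83 (SE 0.17), whereas a second row of Rpl30 was below 0 in all 8 values with a shared shift of -0.58 (SE 0.13). Rps12 was at 1.79, 0.95, 0.55 and 1.30 in brain and at -0.12, 1.01, 1.37 and -0.08 in spleen, a shared shift of 0.84 (SE 0.22), and a second row of it was at 0.02. These are the 2 rows of the list above 0 at an unadjusted p under 0.05. Rows of the same gene correlated weakly over the array, at 0.151 for the shared shift and 0.057 for the difference over 4469 pairs of rows. Ribosomal genes have many processed pseudogenes of near-identical sequence, and what each spot catches is not known.

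Vertebrate mRNAs of ribosomal proteins and of Eef2 are known to begin with a run of pyrimidines that governs their translation, and the 30 bases around the RefSeq start are shown for 4 of the genes above to let a reader see it. Runs of a C followed by 4 or more C or T are in capitals, 5′ to 3′ on the strand of the gene, with the start between the middle 2 bases on GRCm38.p6. Rpl12 lies at chr2:32961697-32961726, Rpl28 at chr7:4792950-4792979, Rplp0 at chr5:115559452-115559481 and Eef2 at chr10:81176616-81176645, all on the plus strand.
Rpl12: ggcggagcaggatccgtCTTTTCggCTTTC
Rpl28: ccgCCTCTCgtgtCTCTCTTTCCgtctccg
Rplp0: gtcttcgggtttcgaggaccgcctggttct
Eef2: tataaaaggccgggcgttgacgtcagcggt
Rpl12 and Rpl28 hold such runs in this window, and Rplp0 and Eef2 hold none. A run was found in 36.4% of all RefSeq windows, in 35 of 60 of the cytosolic ribosome (58.3%) and in 10 of 13 of the macrophage and red pulp list. The arrays measured RNA, and nothing here bears on translation.

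**Figure D2:**
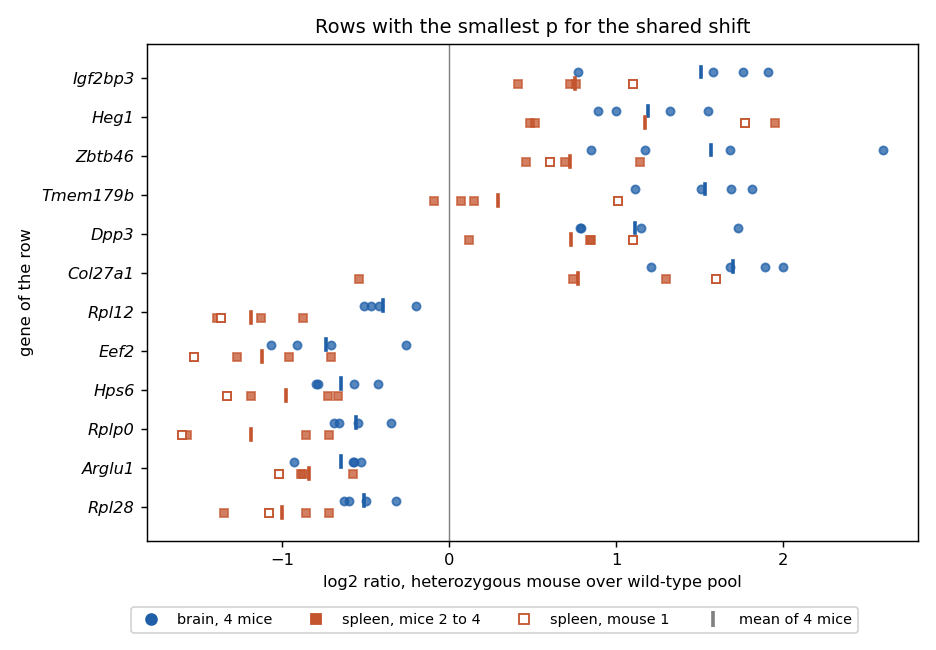
Log2 ratios of heterozygous mouse over wild-type pool (x axis) in the 6 named rows with the smallest p for a higher shared shift, from Igf2bp3 to Col27a1, and the 6 for a lower one, from Rpl12 to Rpl28. Circles are the 4 brain values, squares the 4 spleen values with mouse 1 open, and bars the means; all values of the 6 lower rows are below 0, while Tmem179b and Col27a1 each have a spleen value below 0.

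Further rows below 0 in both organs belonged to genes of several roles. Hps6, a subunit of a complex for lysosome-related organelles, had a shared shift of -0.81 (SE 0.14), from -0.79, -0.80, -0.43 and -0.57 in brain and -1.33, -0.67, -0.73 and -1.19 in spleen. Arglu1, a nuclear protein linked to splicing, had a shared shift of -0.75 (SE 0.13), with brain between -0.93 and -0.53 and spleen between -1.02 and -0.58. Both had an adjusted p of 0.164, and 0.0172 and 0.0295 in the dye-term fit over arrays. The iron store Fth1 had 4 rows with shared shifts of -0.71, -0.56, -0.52 and -0.51, and the MHC class I light chain B2m one of -0.61, with brain at -0.31, -0.48, -0.30 and -0.21 and spleen at -1.0, -0.89, -0.84 and -0.88. B2m was thus below the pool in both organs, unlike the median of the MHC class I list in brain, and its organs did not overlap. Clu, Cst3 and Apoe, secreted proteins that astrocytes make in quantity, had shared shifts of -0.67, -0.64 and -0.51. In the Cy5 arrays alone these shifts were -0.06, -0.08 and -0.01, and in the Cy3 arrays -1.28, -1.2 and -1.02. The lysosomal proteases Ctss and Ctsb had -0.63 and -0.51 (a second Ctsb row was at -0.18), the second Lyz2 row -0.64 and the mRNA decay factor Zfp36 -0.63.

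The shared higher rows belonged to no common role. Igf2bp3, an RNA-binding protein of fetal tissue, was at 0.77, 1.91, 1.58 and 1.76 in brain and at 1.10, 0.72, 0.76 and 0.41 in spleen, a shared shift of 1.13 (SE 0.17). Heg1, a membrane protein of endothelium, was at 1.32, 0.89, 1.55 and 1.00 in brain and at 1.77, 1.95, 0.48 and 0.51 in spleen, a shared shift of 1.18 (SE 0.21). Zbtb46, a transcription factor of classical dendritic cells, was at 1.68, 0.85, 1.17 and 2.60 in brain and at 0.60, 0.46, 1.14 and 0.69 in spleen, a shared shift of 1.15 (SE 0.20). In these 3 rows all 8 values were above 0, and the adjusted p was 0.164 by limma. By dye, Zbtb46 in spleen was at -0.46 in the Cy5 arrays and 2.34 in the Cy3 arrays, and Igf2bp3 in brain at 2.69 and 0.56. Heg1 was at 1.03 and 1.27 in brain and at 0.46 and 1.44 in spleen. The peptidase Dpp3, the membrane protein Tmem179b and the fibrillar collagen Col27a1 had shared shifts of 0.92 (SE 0.17), 0.91 (SE 0.17) and 1.23 (SE 0.23), the spleen values of Tmem179b being close to 0 except in mouse 1, at 1.01. By dye, Dpp3 in spleen was at -0.13 in the Cy5 arrays and 1.27 in the Cy3 arrays. Col27a1 in brain was at 2.83 and 0.39, and Tmem179b in brain at 1.03 and 1.92. Second rows were at 0.42 for Igf2bp3, 0.36 for Heg1, 0.58 for Zbtb46 and 0.08 for Col27a1. All second rows were therefore lower than the rows chosen for their small p.

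Other housekeeping lists had shared shifts below 0 but closer to it than the ribosome. The oxidative phosphorylation list had medians of -0.32 in brain and -0.24 in spleen over 86 rows, a median shared shift of -0.28, 27 rows at an unadjusted p under 0.05 below 0 against 6.11%, and 29 rows below 0 in all 8 values against 3.82%. Its subunit Cox6a1 had rows of opposite sign, at shared shifts of 0.71 and -0.64, the former with a spleen mouse 1 value of 2.33 and at 0.43 without that sample. Splicing and RNA helicases had a median shared shift of -0.17 with 27 of 97 rows past that threshold below 0, among them the splicing factor Srsf5 at -0.82 (SE 0.23). The proteasome list was at -0.24 with 8 of 45, among them Psmb1 and the activator subunit Psme2, both at -0.54. Chaperones and unfolded protein response genes were at -0.10 with 13 of 70, and the 14-3-3 proteins at -0.35 over 6 rows, all of them below 0. The 14-3-3 list was lower in brain than in spleen, at -0.44 and -0.22. Median differences between organs were -0.03, -0.01, 0, 0.03 and -0.16 in these 5 lists.

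Globin rows were low in both organs. The erythroid and globin list had medians of -0.31 in brain and -0.35 in spleen, with 8 of 25 rows below 0 at an unadjusted p under 0.05 for the shared shift against 6.11% of all rows. Hba-a1, the alpha globin chain of adult haemoglobin, had 6 rows with shared shifts from -0.88 to -0.55, the lowest of them in the uncertain last part of the table. Of the 5 rows with firmer names the lowest was at -0.69, and the others lay between -0.64 and -0.55. That row was at -0.20, -1.02, -1.34 and -0.34 in brain and at -0.62, -0.98, 0.09 and -1.12 in spleen. Mice 2 and 3 were lowest in brain and mouse 4 in spleen, so the range over the mice was wider than the shift. Spots of Hba-a1 may also catch Hba-a2. The part of blood left in the organs was not tested.

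**Figure D3:**
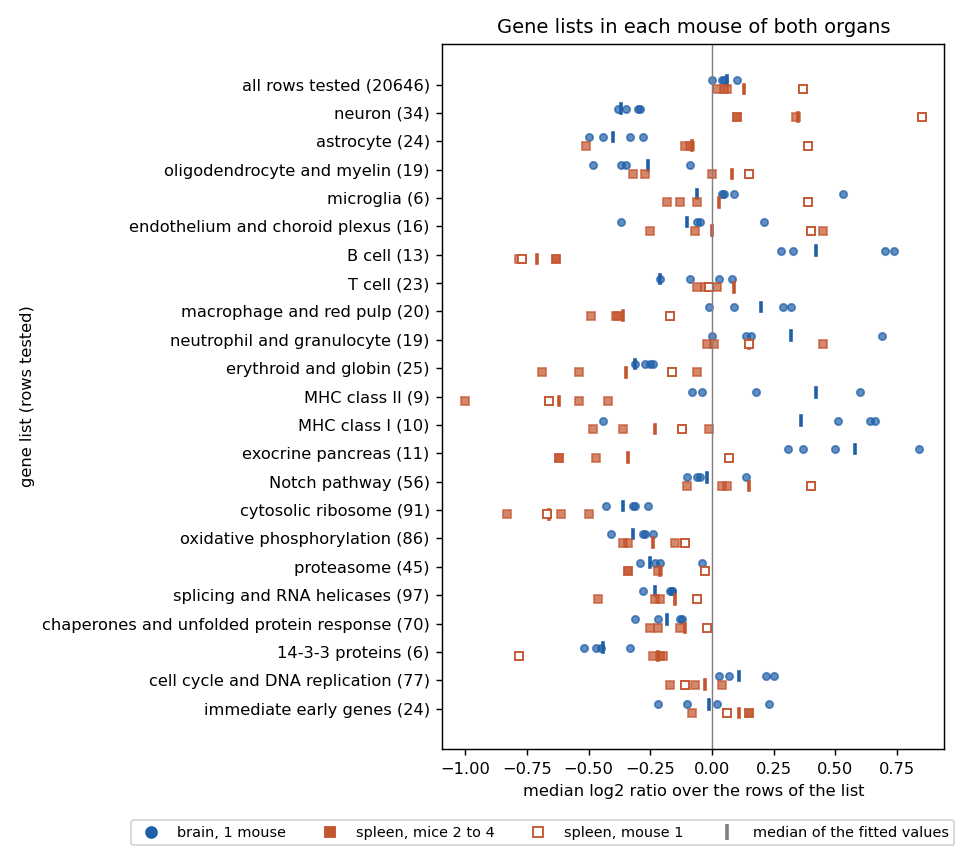
Median log2 ratio over the rows of each of 22 gene lists and of all rows tested (y axis, with the number of rows), in each mouse. Circles are brain, squares spleen with mouse 1 open, and bars the medians of the fitted organ means; the B cell list lies at 0.28 to 0.74 in brain and -0.78 to -0.63 in spleen, and the cytosolic ribosome below 0 in all 8 samples.

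The Notch pathway as a whole had medians near those of all rows. Its 56 rows of 39 genes had medians of -0.02 in brain and 0.15 in spleen, a median difference of -0.03 and a median shared shift of 0.06. For the difference 1 row was above 0 at an unadjusted p under 0.05, against 2.54% of all rows, and 2 were below 0, against 2.46%. For the shared shift 5 were above 0, against 10.3% of all rows, and 6 below 0, against 6.11%. Hey1, a transcription factor that Notch turns on, was at -0.43, -0.74, -0.63 and -0.76 in brain and at -0.86, -0.89, -0.31 and -0.53 in spleen, a shared shift of -0.64 (SE 0.14) with an adjusted p of 0.164. Dtx4, a Deltex ubiquitin ligase of the pathway, was at -0.35, 0.72, 1.25 and 2.18 in brain and at 1.30, 0.83, 0.74 and -0.06 in spleen, a shared shift of 0.83 (SE 0.27) that was 0.52 without spleen mouse 1 and brain mouse 4. Neurl1a, a ubiquitin ligase that acts on Notch ligands, had a shared shift of 0.65 (SE 0.27), or 0.40 without spleen mouse 1. A second row of Neurl1a was at -0.31 and a second row of Dtx4 at 0.18. Of the rows of Hey1, Dtx4 and Neurl1a named first, that of Hey1 alone lay on the same side of 0 in every sample, and its other 2 rows, with uncertain names, were both at -0.07.

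The dye of the mutant RNA moved with most of these values. Beside the ribosome, oxidative phosphorylation was at 0.08 in the Cy5 arrays and -0.66 in the Cy3 arrays of brain and at -0.08 and -0.43 in spleen, and splicing at 0.05 and -0.42 and at -0.08 and -0.46. In the Cy3 arrays alone 3629 rows passed the adjusted threshold for the shared shift, 1848 above and 1781 below 0, and in the Cy5 arrays 0. The difference between organs had the same sign in each dye for the neuron, B cell, macrophage, MHC class II and exocrine pancreas lists. Read as Cy5 over Cy3, the cytosolic ribosome would be at 0.41 for the shared shift, and the neuron and B cell lists at 0.36 and -0.23 for the difference. The part of the dye in the shared shift was not tested beyond these values.

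**Figure D4:**
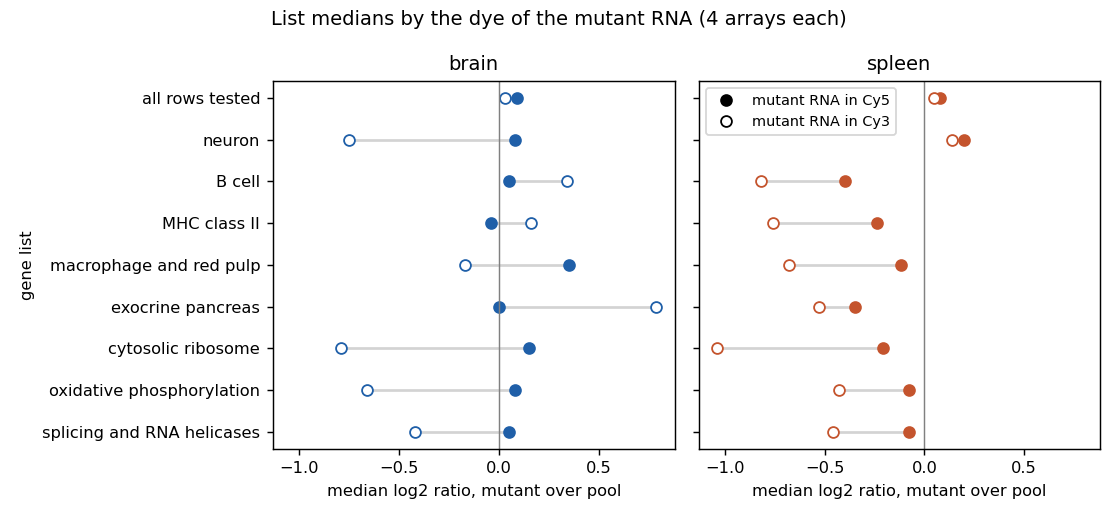
Median log2 ratio of mutant over pool (x axis) for 8 gene lists and all rows, in brain (left) and spleen (right). Filled circles are the 4 arrays with the mutant RNA in Cy5 and open circles the 4 with it in Cy3; the cytosolic ribosome lies at 0.15 and -0.79 in brain and at -0.21 and -1.04 in spleen.

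Across the array the profiles of the organs were weakly alike. Over the 17998 complete rows the mean ratios of brain and spleen correlated at 0.228, and at 0.236 without spleen mouse 1. Brain and spleen of the same mouse correlated at 0.065 to 0.123, and those of different mice at 0.037 to 0.113, so animals were not closer to themselves than to each other by more than these ranges. The means of the Cy3 arrays correlated at 0.452 and those of the Cy5 arrays at 0.093, and single arrays of opposite dyes at -0.141 to 0.116. All of these points share the platform, the dyes and the animals behind the pools, and genes are not independent replicates.

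**Figure D5:**
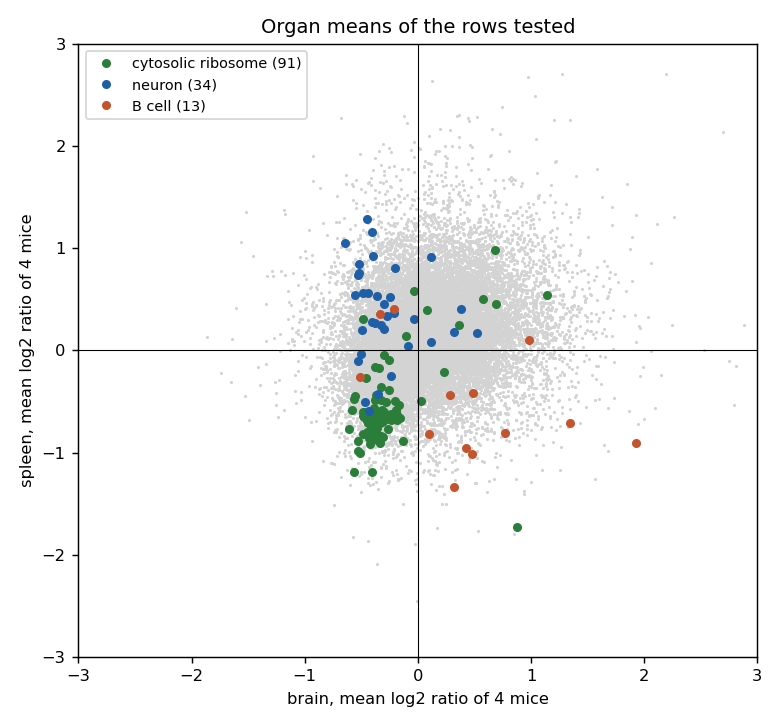
Mean log2 ratio in brain (x axis) against spleen (y axis) for each row tested in grey, with the rows of 3 gene lists coloured. Cytosolic ribosome rows gather below 0 in both organs, neuron rows left of 0 and above it, and B cell rows right of 0 and below it, with medians of -0.36 and -0.66, -0.37 and 0.35, and 0.42 and -0.71; 2 rows lie beyond the axes, which end at 3.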

How the data were processed

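The slides were scanned and quantified by the authors with GenePix and TM4 software. The deposited values are log2 ratios, 1 for each of 20794 spots on every array. The normalization, the filter on weak spots and the direction are not given in the sources used here. No normalization was added. Values beyond 12 in size, which repeat an extreme number on each array (10 to 294 per array), were treated as missing. Arrays held 12693 to 20549 values, and depth does not apply. Their number limits the precision. Row n took the gene listed 11 places earlier in the platform annotation, so that 12760 rows carry 9026 genes. All their Entrez IDs were found in the RefSeq gene table, and no probe had several symbols.

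The 2 arrays of a mouse and organ were averaged where both had a value, which gave 4 mice per organ. Rows measured in 3 or 4 mice of each organ were fitted with limma 3.58.1 in R 4.3.3 (lmFit with organ means, eBayes). Tests were two-sided with Benjamini-Hochberg adjustment over all rows at 0.05. Each pool is 1 control sample, so the spread of wild-type mice is not in the test. The alternative with a dye term fitted single arrays, with the pair of a mouse and organ as a random block. The fit was tested on simulated data.

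The mice are the same animals in both organs by the labels. Deviations from the organ mean correlated at -0.005 to 0.021 (median 0) for the same mouse, and at -0.044 to 0.033 for different mice. The fit with the mouse as a block changed no call.

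Genes and the 22 lists were chosen with earlier results of these data known. Named rows are those with a name outside the uncertain last part of the table and a value in every mouse. The rule takes the 6 smallest p in each direction for each test, the 5 largest differences in each direction among rows of opposite sign, up to 3 rows per list and test, and all Dll1 rows. Lists are described by counts and medians without a test. Alternatives left out mice, used 1 dye, read the ratio as Cy5 over Cy3, centred or scaled arrays, and changed filters, spread, moderation, averaging and naming. Leaving out spleen mouse 1 and brain mouse 4 together was added after the data were seen. Sequences are from RefSeq, GRCm38.p6. Summaries used pandas 2.3.3 and numpy 2.4.6 in Python 3.11.15, and matplotlib 3.10.9 drew the figures.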

Additional observations from a re-analysis of the deposited data

Results flagged for a closer look

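A value far from the others of its organ was found in 22 of 188 groups of 4 mice or 8 arrays (11.7%) by Dixon's ratio. In independent groups of normal values chance alone would set it off in about 5%. The rows were chosen by p or size and the lists overlap, so the 11.7% cannot be read against that rate. For single rows it was 13 of 134 groups, for list medians 6 of 48 and for array properties 3 of 6. Spleen mouse 1 was the far sample in 5 of the rows, at 3.98 for Tuft1, 5.06 for Nptxr, 5.02 for 1110051M20Rik, 4.02 for Diras1 and 2.33 for the higher Cox6a1 row. It was also the far sample for the median of all rows tested at 0.37, of all named rows at 0.33 and of the 14-3-3 proteins at -0.78.

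In brain, mouse 3 stood apart for Cd74 at 3.25 and Rac2 at 1.54. Mouse 2 stood apart for Arglu1 at -0.93 and Ms4a1 at -1.10, and for the medians of microglia at 0.53, MHC class I at -0.44 and splicing and RNA helicases at -0.28. Mouse 4 stood apart for Plac8 at -0.40 and Psmb1 at -0.01, and mouse 1 for an Fth1 row at -0.18. In spleen, mouse 4 stood apart for an Eef2 row at -0.88. Among arrays, the Cy5 array of brain mouse 4 stood apart for missing values at 22.3% and standard deviation at 1.418, and the Cy5 array of spleen mouse 1 for its median at 0.708.

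The list medians of brain and spleen had opposite signs in every mouse for the neuron list, with a median difference of -0.66, and for the B cell list, with 0.92. The difference between organs was not tested for lists.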

How the results depend on the processing

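No alternative gave a row with an adjusted p under 0.05 for the difference. Of the 70 single values, none changed its direction or its side of the threshold under centring, scaling, other filters on missing values, kept extremes, robust moderation or leaving out spleen mouse 1 with brain mouse 4. Where both arrays of a mouse were needed, only 58 of the 70 values could be fitted. Not fitted there were the Cd74 differences of 2.83 and 2.05, Nrros, Cela2a, H2-Eb1, Rnase1 and 1110051M20Rik. The same held for the shared shifts of Heg1, Zbtb46, Col27a1, Neurl1a and the higher Rpl30 row. With the mouse as a replicate block, paired by animal, 0 rows passed for the difference or the shared shift, with 1000 and 3146 at an unadjusted p under 0.05, and no call changed.

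Read as Cy5 over Cy3, 55 of the 70 values turned their sign. Differences were then Cd74 -0.91, -1.39 and -0.19, Pou2af1 -0.08, Rac2 -0.3, Nrros -1.32, Mrgprb8 0.28, Syn1 0.11, Me3 0.24, Prrc2b 0.92, Mark2 -0.6, Tuft1 0.27, Nptxr 1.46, Diras1 1.09, Camk2b 0.63, Vsnl1 1.19, Ms4a1 -0.08, Lyz2 -0.05, Rnase1 -0.71, Cela2a -1.02, Cpa1 -0.41, H2-Eb1 -0.8 and Dll1 0.17. Shared shifts were Heg1 -0.4, Zbtb46 -0.95, Tmem179b -0.44, Dpp3 -0.69, Rpl12 0.21, Eef2 0.55, 0.54, 0.36 and 0.24, Hps6 0.51, Rplp0 0.6, Arglu1 0.19, Rpl28 0.37, Clu 0.61, Cst3 0.56, Apoe 0.51, Lyz2 0.7, Ctss 0.24, Ctsb 0.4, Hba-a1 0.26, 0.43 and 0.63, Hey1 0.19, Cox6a1 0.3, Psme2 0.03, Srsf5 0.33, Rps12 -0.17, Rpl30 -0.34, Fth1 0.42 and 0.73, B2m 0.17 and Zfp36 0.22. Cy5 arrays alone turned the shared shift of the second Lyz2 row to 0.06 and of an Fth1 row to 0.17. Cy3 arrays alone turned the shared shift of the former Dll1 row to -0.04 and the difference of the latter to -0.78. With a sample left out this last difference ran from -0.15 without spleen mouse 2 to 0.47 without spleen mouse 1, and was -0.09 without mouse 2 in both organs.

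For the shared shift 3629 rows passed the adjusted threshold in the Cy3 arrays alone, 901 with the spread of all 4 organs and 266 with the dye term. For brain they were 1904 and 56 under the former 2, and for spleen 126, 122, 44 with the dye term and 1 with arrays centred and scaled. At an unadjusted p under 0.05 the difference had 2148 rows in the Cy3 arrays, 2062 with the spread of all organs and 548 over means of a gene. The shared shift had 1436 in the Cy5 arrays, 6785 in the Cy3 arrays and 1443 over gene means. Brain had 3587 read as Cy5 over Cy3, 5989 in the Cy3 arrays, 3457 with the spread of all organs and 936 over gene means, and spleen had 833 in the Cy5 arrays, 4271 in the Cy3 arrays, 3923 and 1092. Gene means are over 8982 genes in place of 20646 rows, and the other causes were not tested.

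Rows below 0 in all samples numbered 38 in the Cy5 and 1378 in the Cy3 arrays. Rows above 0 in all samples numbered 148 and 953 there, 898 read as Cy5 over Cy3, 275 after centring and 116 where both arrays were needed. Opposite signs were counted in 84 rows in the Cy5 arrays and 89 where both arrays were needed, and separate organs in 332 and 386. Leaving out a mouse, from 1 organ or both, gave 640 to 1465 rows at an unadjusted p under 0.05 for the difference, 1933 to 3836 for the shared shift, 1000 to 3639 for brain and 1566 to 2326 for spleen, with 0 at the adjusted threshold. The same samples left out gave 744 to 1346 rows below 0 throughout, 618 to 1232 above 0, 334 to 724 of opposite sign and 1354 to 2988 separate, since fewer values have to meet the condition.

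With names at the row numbers as listed, the median shared shift of the cytosolic ribosome was 0.08, and the median differences of the B cell, neuron, MHC class II and exocrine pancreas lists were -0.11, -0.02, 0.25 and 0.21. Spot intensities were not used here, so what signal over background limits is not known. With 4 mice and 1 pool per organ, a p that misses the threshold does not show that values are alike.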
